A study of Homo sapiens with 48 samples.

Results

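The 10 genes around the MITF/TFE transcription factors were followed in AMO1 cells, a human multiple myeloma line, after the endoplasmic reticulum stress sensor IRE1 or its target XBP1 was silenced. The genes were picked by symbol from the 58302 rows of the count table: the factors MITF, TFEB and TFE3, their regulators FLCN, FNIP1, FNIP2 and RRAGD, and their lysosomal and autophagy targets SQSTM1, GABARAPL1 and MCOLN1. Of the 10 members, 9 passed the filter on low counts in every clone, and FNIP1 did not. The cells were clones that carried doxycycline-inducible shRNA against one transcript, either IRE1 (shIRE1 clones 1 and 3) or XBP1 (shXBP1 clones 1 and 18). Each clone was sampled in 3 biological replicates after 0, 24, 48 and 72 h of 0.2 µg/ml doxycycline (Dox), which gave 16 groups and 48 libraries. All groups shared the inducible vector, and the 0 h group of each clone had no Dox. Control clones whose shRNA targets no gene are not analysed here, and a response to Dox as such can therefore not be separated from any change. Each target was represented by 2 clones, and the clones already differed from one another at 0 h. The purpose of comparing the targets was to separate effects of IRE1 from those of XBP1. MITF was of interest to the study as a negative regulator of the plasma cell factor IRF4.

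MITF, TFEB and TFE3 are basic helix-loop-helix leucine zipper proteins that bind E-box elements upstream of lysosomal and autophagy genes. When nutrients are ample, Rag GTPases hold them at the lysosome, where mTORC1 phosphorylates them and keeps them out of the nucleus. FLCN and its partners FNIP1 and FNIP2 switch RRAGC and RRAGD into the form that presents these factors to mTORC1, and FLCN, FNIP2 and RRAGD are in turn targets of the factors. Plasma cells make antibody at a high rate and rely on autophagy and lysosomes to handle the load. The activity of the factors depends largely on where the protein is, which counts of mRNA do not measure.

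The members' promoters were searched for the E-box because it is the element the factors read. RefSeq (GRCh38.p14) gave 16 start sites for 9 of the 10 members, each with the 250 bases before the start and the 50 bases after it; RRAGD had no entry. Searched on both strands, CACGTG lay in promoters of 2 members, FNIP1 and MCOLN1, and in 7.26% of the 35116 promoters of all genes. Its longer form TCACGTGA, which contains it, lay in 0.98% of all promoters and among the members in that of MCOLN1, where both copies of the E-box had it. The related TCATGTG, read as CACATGA on the other strand, lay in 2.92% of all promoters and among the members at the second FNIP2 start. The 250 bases before the start are printed for MCOLN1, a target that fell in both shIRE1 clones (chr19:7522374-7522623, plus strand), for the second FNIP2 start, inside a gene whose response differed between clones (chr4:158805589-158805838, plus strand), and for the first MITF start, which held none of the 3 motifs (chr3:69739214-69739463, plus strand). Capitals mark the matches, whose first bases lie 41 and 14 bases before the MCOLN1 start and 142 bases before the FNIP2 start. A match is a description of the letters and not of binding.
MCOLN1: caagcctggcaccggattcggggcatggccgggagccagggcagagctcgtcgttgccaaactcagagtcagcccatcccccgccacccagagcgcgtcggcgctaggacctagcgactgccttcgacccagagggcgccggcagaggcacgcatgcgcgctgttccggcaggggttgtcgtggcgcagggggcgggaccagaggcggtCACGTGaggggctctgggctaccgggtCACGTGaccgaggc
FNIP2: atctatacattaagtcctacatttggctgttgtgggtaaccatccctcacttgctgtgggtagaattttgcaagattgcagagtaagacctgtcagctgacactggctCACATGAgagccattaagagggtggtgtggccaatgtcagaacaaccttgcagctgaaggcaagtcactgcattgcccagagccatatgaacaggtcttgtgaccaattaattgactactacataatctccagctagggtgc
MITF: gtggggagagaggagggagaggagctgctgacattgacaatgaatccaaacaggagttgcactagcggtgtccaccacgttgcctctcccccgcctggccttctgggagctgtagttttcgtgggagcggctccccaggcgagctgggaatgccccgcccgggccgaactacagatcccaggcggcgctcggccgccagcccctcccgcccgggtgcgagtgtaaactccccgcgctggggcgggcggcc

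Total counts ran from 19177855 to 40767202 per library with a median of 30776246.5. By these totals alone 1 count was at most 0.0521 CPM (the count scaled by the library's total). The CPM printed below use the totals of genes that passed the filter and TMM size factors. By these, 1 count read 0.0559 CPM in shXBP1 clone 18, 0 h, replicate 1. All 10 plasma cell markers had a median above 1 CPM, and the melanocyte markers, defining for the cells in which MITF is best known, summed to between 1.81 and 4.45 CPM with TYR at 0 in all 48 libraries. Markers of macrophages and osteoclasts summed to between 24.2 and 37.1 CPM, nearly all of it CTSK. Those of T cells summed to between 4.62 and 17.3 CPM, with CD3E the one marker above 1 CPM, and epithelial and stromal markers to between 0.220 and 1.68 CPM. ERN1, the gene of IRE1, went from between 150 and 154 CPM at 0 h to between 92.5 and 129 CPM at the 3 later times in shIRE1 clone 1, and from between 421 and 451 to between 118 and 146 CPM in clone 3. At 24, 48 and 72 h ERN1 was at 0.830, 0.633 and 0.671 times its 0 h level in clone 1. In clone 3 it was at 0.330, 0.275 and 0.283 times, so the knockdown was weaker in clone 1, most of all at 24 h. XBP1 went from between 159 and 173 CPM to between 33.2 and 49.2 CPM in shXBP1 clone 1 and from between 166 and 178 to between 31.7 and 64.7 CPM in clone 18. It also fell at 48 and 72 h in both shIRE1 clones, by 0.38 to 0.95 on the log2 scale. ERN1 rose by 0.76, 0.62 and 0.72 at 24, 48 and 72 h in shXBP1 clone 1 and fell by 0.29 at both 48 and 72 h in clone 18. At 72 h in clone 18 it read 362, 347 and 305 CPM, the last in the library labelled replicate 3 that is described next, against between 411 and 418 CPM at 0 h.

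The library labelled shXBP1 clone 18, 72 h, replicate 3 stood apart from its group. Over 18445 genes its log2(CPM + 1) values correlated at 0.9906 with the other two replicates of its label and at 0.9979 with shXBP1 clone 1 at 72 h, while the other two correlated at 0.9972 with each other. Its TFE3 level was 26.1 CPM against 61.1 and 51.7 CPM in the other two, and between 26.3 and 26.9 CPM in clone 1. GABARAPL1 was at 14.2 CPM in it against 8.36 and 8.41 CPM. Member calls that it changed are given with and without it, as are the numbers of list genes called. Medians, single list genes and correlations are given only with it. In shXBP1 clone 1 the first 0 h replicate also stood apart, with TFEB at 48.2 CPM against 30.2 and 29.8 CPM in the other two. Its gene counts differed from those of the other two by mean chi-square values of 43.1 and 43.6 per gene, against 2.65 between the other two. Replicates of other groups were uneven as well. The highest value of the 48 pairs, 62.1, lay between replicates 1 and 2 of 24 h in shXBP1 clone 1. In shIRE1 clone 3, replicate 3 of 72 h gave 17.8 and 21.5, against 3.05 for the remaining pair. Replicate 1 of 0 h in that clone gave 16.3 and 22.5, against 5.43.

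**Figure D1:**
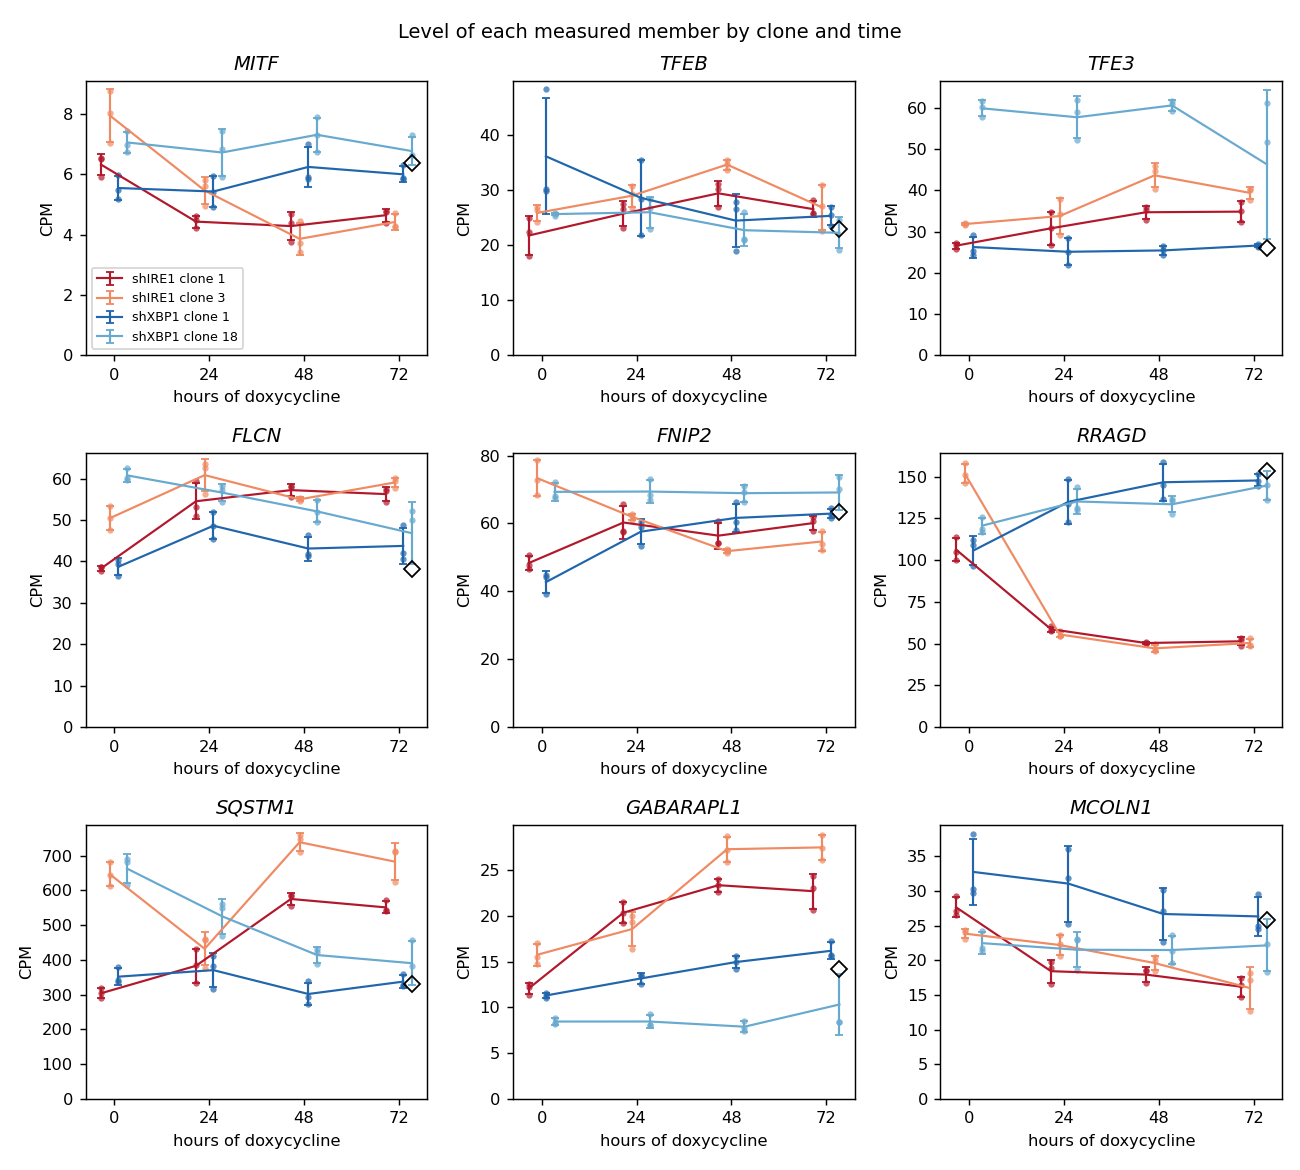
Level of each measured member in CPM (linear axes from 0) against hours of doxycycline in the 4 clones; points are libraries, slightly shifted sideways by clone, lines join the means of 3 replicates and bars are ± SD. The open diamond is the library labelled shXBP1 clone 18, 72 h, replicate 3, and RRAGD shows the widest separation, with shIRE1 libraries between 45.6 and 51.2 CPM and shXBP1 libraries between 128 and 159 CPM at 48 h.

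At 0 h the members spanned a wide range of levels per length of exon, given here as CPM per kilobase of annotated exon, with the lowest and the highest clone mean. SQSTM1 was highest at between 40.3 and 87.9, followed by RRAGD at between 20.8 and 29.8. TFE3 lay between 6.24 and 14.2, MCOLN1 between 5.68 and 8.28, FNIP2 between 3.89 and 6.68, FLCN between 3.91 and 6.21, TFEB between 3.23 and 5.36 and GABARAPL1 between 2.09 and 3.89. Among these 6, neighbours in the order overlapped over the clones, whereas SQSTM1, RRAGD and, at the bottom, MITF at between 0.748 and 1.07 did not overlap their neighbours. MITF was thus the least abundant of the 3 factors in these plasma cells in all 4 clones. TFEC, the fourth gene of the family, had at most 6 counts in any library and 89 counts over all 48. Exons of all annotated isoforms enter these lengths, which lowers the value of a gene such as MITF with many alternative starts.

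MITF mRNA fell in both shIRE1 clones at every time and in neither shXBP1 clone. MITF (ENSG00000187098) lies at chr3:69739456-69968336 on the plus strand, and its isoforms were not counted apart. It was counted with between 103 and 260 reads per library. In shIRE1 clone 1 the 3 replicates read 6.54, 6.51 and 5.92 CPM at 0 h, 4.61, 4.48 and 4.22 CPM at 24 h, 3.76, 4.40 and 4.70 CPM at 48 h, and 4.76, 4.40 and 4.78 CPM at 72 h. Clone 3 started higher, at 8.05, 7.05 and 8.78 CPM, and went to 5.82, 5.62 and 4.95 CPM at 24 h, 3.72, 4.44 and 3.43 CPM at 48 h, and 4.27, 4.71 and 4.27 CPM at 72 h. Every Dox library of both clones lay below every 0 h library of its clone. The log2 fold changes were -0.51 ± 0.098, -0.56 ± 0.099 and -0.45 ± 0.10 (SE) in clone 1 and -0.55 ± 0.12, -1.05 ± 0.12 and -0.86 ± 0.12 in clone 3 at 24, 48 and 72 h, with adjusted p-values from 2.83e-06 to 0.00154 (edgeR quasi-likelihood, Benjamini-Hochberg). This is a level of 0.700, 0.677 and 0.733 times that at 0 h in clone 1, and 0.681, 0.483 and 0.550 times in clone 3. The shXBP1 libraries lay between 4.91 and 7.01 CPM in clone 1 and between 5.91 and 7.90 CPM in clone 18, and their groups overlapped at all times. None of the 6 changes, between -0.07 and 0.15, passed the test (adjusted p from 0.317 to 0.867). IRF4 moved in the same direction as MITF in the shIRE1 clones: it went by -0.40, -1.17 and -1.11 in clone 1 and by -0.53, -2.19 and -2.10 in clone 3 on the log2 scale. IRF4 rose by 0.14, 0.16 and 0.16 in shXBP1 clone 1 and changed by between -0.05 and 0.01, none past the test, in clone 18. In bulk libraries, fewer cells with a transcript and less of it per cell cannot be told apart.

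TFEB and TFE3, the relatives of MITF, moved the other way after shIRE1 and by less. TFEB (ENSG00000112561, chr6:41683978-41736259, minus strand) read 17.9, 22.3 and 24.8 CPM at 0 h and 31.1, 30.1 and 26.8 CPM at 48 h in shIRE1 clone 1. In clone 3 it read 24.1, 26.3 and 26.9 CPM at 0 h and 34.7, 33.6 and 35.4 CPM at 48 h. The groups of 0 and 48 h did not overlap in either clone, and TFEB rose by 0.44 ± 0.097 and 0.41 ± 0.10 on the log2 scale (adjusted p = 0.000649 and 0.00226). The rises of 0.24 at 24 h and 0.28 at 72 h in clone 1 also passed, while the values of 0.16 and 0.05 in clone 3 did not. These smaller TFEB calls depended on the libraries and the fit. At 24 h the value was 0.12 without replicate 1 of 0 h, 0.25 without replicate 2 of 0 h, 0.19 without replicate 2 and 0.21 without replicate 3 of 24 h. At 72 h it was 0.16 without replicate 1 of 0 h and 0.23 without replicate 1 of 72 h. None of these passed. With every library kept, the 24 h call was lost with RLE size factors, DESeq2, limma, the fit of 6 libraries, that of 48 libraries and the replicate block (adjusted p from 0.0551 to 0.194), and the 72 h call in the fit of 48 libraries (adjusted p = 0.117).

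TFE3 (ENSG00000068323, chrX:49028726-49043410, minus strand) was steadier between replicates. In shIRE1 clone 1 it went from 27.1, 26.8 and 25.7 CPM at 0 h to 35.9, 35.3 and 32.8 CPM at 48 h and to 37.3, 32.2 and 35.01 CPM at 72 h. Clone 3 went from 32.0, 31.9 and 31.6 CPM to 46.0, 40.3 and 44.6 CPM at 48 h and 40.4, 40.04 and 37.7 CPM at 72 h. TFE3 rose by 0.39 ± 0.081 and 0.39 ± 0.082 at 48 and 72 h in clone 1 and by 0.45 ± 0.085 and 0.30 ± 0.085 in clone 3 (adjusted p from 0.000320 to 0.00735). In the fit of all 48 libraries the clone 3 value at 72 h was 0.31 and did not pass (adjusted p = 0.0670). At 24 h the value was 0.21 in clone 1, which passed, and 0.08 in clone 3, which did not. Without replicate 2 or 3 of 0 h, or without replicate 2 or 3 of 24 h, the clone 1 value was 0.21, 0.19, 0.21 and 0.11 and did not pass. It also missed the threshold with every library kept in DESeq2, in limma, in the fit of all 48 libraries and with the replicate block (adjusted p from 0.0551 to 0.231). Neither gene passed in a shXBP1 clone. TFEB values in shXBP1 clone 1 were -0.36, -0.57 and -0.53 (adjusted p from 0.0599 to 0.238). Without replicate 1 of 0 h, the library with 48.2 CPM, they were -0.08, -0.31 and -0.26. Without replicate 3 of 0 h the 48 h value was -0.70 and passed. TFE3 in clone 18 was at -0.37 ± 0.21 at 72 h, which did not pass, at -0.08 without the library that stood apart, and at -0.62, which passed, without replicate 1 of 72 h.

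RRAGD had the largest change of the members. It encodes a Rag GTPase that, paired with RRAGA or RRAGB, carries amino acid signals to mTORC1 and holds the factors at the lysosome. RRAGD (ENSG00000025039, chr6:89364616-89412273, minus strand) shared no exon base with another annotated gene. In shIRE1 clone 1 it read 114, 105 and 100.0 CPM at 0 h, 60.3, 57.8 and 57.8 CPM at 24 h, 49.7, 51.2 and 50.1 CPM at 48 h, and 48.8, 51.9 and 53.4 CPM at 72 h. In shIRE1 clone 3 it read 158, 146 and 151 CPM at 0 h, 57.5, 54.6 and 54.3 CPM at 24 h, 46.1, 49.6 and 45.6 CPM at 48 h, and 48.8, 49.0 and 53.2 CPM at 72 h. Most of the fall was present at 24 h, no Dox library overlapped the 0 h libraries of its clone, and the clones ended at similar levels from different starts. On the log2 scale RRAGD fell by 0.86 ± 0.050, 1.08 ± 0.050 and 1.05 ± 0.051 (SE) in clone 1 and by 1.46 ± 0.054, 1.70 ± 0.054 and 1.61 ± 0.054 in clone 3. This took it to 0.550, 0.474 and 0.482 times and to 0.363, 0.308 and 0.328 times the level at 0 h (adjusted p from 9.57e-13 to 4.29e-11). XBP1 silencing had the opposite sign. RRAGD read 96.2, 109 and 112 CPM at 0 h and 144, 151 and 147 CPM at 72 h in shXBP1 clone 1. It rose by 0.33 ± 0.079, 0.45 ± 0.079 and 0.46 ± 0.079 (adjusted p = 0.0102, 0.00136 and 0.00112). In clone 18 it read 117, 126 and 119 CPM at 0 h and 136, 145 and 153 CPM at 72 h. It rose by 0.27 ± 0.063 at 72 h (adjusted p = 0.0202), with values of 0.16 and 0.15 that did not pass at 24 and 48 h. The 72 h value in clone 18 was 0.22 (adjusted p = 0.0386) without the library that stood apart, and 0.26 and 0.27, neither past the test, without replicate 1 and without replicate 3 of 0 h.

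FLCN, the catalytic part of the activator of RRAGC and RRAGD, rose in shIRE1 clone 1 and less in clone 3. FLCN (ENSG00000154803, chr17:17212212-17237188, minus strand) shares 11.9% of its exon bases with a readthrough gene that had 22 counts in all. It went from 38.6, 38.6 and 37.7 CPM at 0 h to 51.0, 53.2 and 59.3 CPM at 24 h in clone 1 and stayed between 54.3 and 58.2 CPM at 48 and 72 h. In clone 3 it went from 53.3, 47.5 and 50.5 CPM to 56.3, 63.6 and 62.6 CPM at 24 h and lay between 54.5 and 60.01 CPM later. Neither clone had a Dox library below its highest 0 h library. The rises were 0.51 ± 0.056, 0.58 ± 0.056 and 0.55 ± 0.056 in clone 1 (adjusted p from 2.86e-08 to 2.47e-07) and 0.27 ± 0.061 and 0.22 ± 0.061 at 24 and 72 h in clone 3 (adjusted p = 0.00248 and 0.00691). The value of 0.12 at 48 h did not pass, and that at 72 h was 0.16 and did not pass without replicate 2 of 0 h. FLCN in shXBP1 clone 1 rose by 0.31 ± 0.090 at 24 h (adjusted p = 0.0261), a call lost without replicate 2 of 0 h (0.27), replicate 2 of 24 h (0.26) or replicate 3 of 24 h (0.31). In clone 18 it fell by 0.37 ± 0.094 at 72 h (adjusted p = 0.0258), from 59.6, 60.1 and 62.6 CPM to 52.2, 49.98 and 38.2 CPM. Without the library that stood apart the fall was 0.25 (adjusted p = 0.0253) and that of 0.22 at 48 h passed as well. Without replicates 1, 2 and 3 of 0 h the 72 h values were -0.37, -0.37 and -0.34 and did not pass.

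FNIP2, which binds FLCN, moved in opposite directions in the 2 shIRE1 clones. FNIP2 (ENSG00000052795, chr4:158769026-158908050, plus strand) read 50.6, 47.7 and 46.5 CPM at 0 h and 57.8, 60.6 and 61.8 CPM at 72 h in clone 1. In clone 3 it read 68.3, 78.8 and 72.8 CPM at 0 h and 53.9, 52.2 and 57.9 CPM at 72 h. The clones thus began far apart and ended within a few CPM of each other, with no overlap between 0 h and any later time in either. FNIP2 rose by 0.32 ± 0.059, 0.22 ± 0.059 and 0.31 ± 0.059 in clone 1 and fell by 0.25 ± 0.059, 0.51 ± 0.059 and 0.44 ± 0.059 in clone 3 (adjusted p from 2.33e-06 to 0.00280). The shXBP1 clones differed too. Clone 1 went from 39.1, 44.2 and 44.9 CPM to 61.7, 64.5 and 62.4 CPM at 72 h and rose by 0.41, 0.51 and 0.54 ± 0.073 (adjusted p from 0.000233 to 0.00188). Clone 18 began at 67.5, 68.0 and 72.3 CPM and changed by between -0.01 and 0.00, with groups that overlapped.

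FNIP1, the other partner of FLCN, gave no usable value. FNIP1 (ENSG00000217128, chr5:131641714-131797017, minus strand) was listed at 0 in all libraries but one, which had 1 count. By the total alone, 3 counts would be 0.156 CPM in the shallowest library. Its neighbour RAPGEF6 had 2 counts in all libraries together, and the readthrough gene that spans both had 0. The readthrough gene shares 3.6% of the FNIP1 exon bases in GENCODE 44. For a related experiment the study counted only reads that could be assigned to exons of a single gene. Whether these counts were made in the same way is not given in the sources used here. A listing at 0 says nothing about FNIP1 mRNA in these cells.

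**Figure D2:**
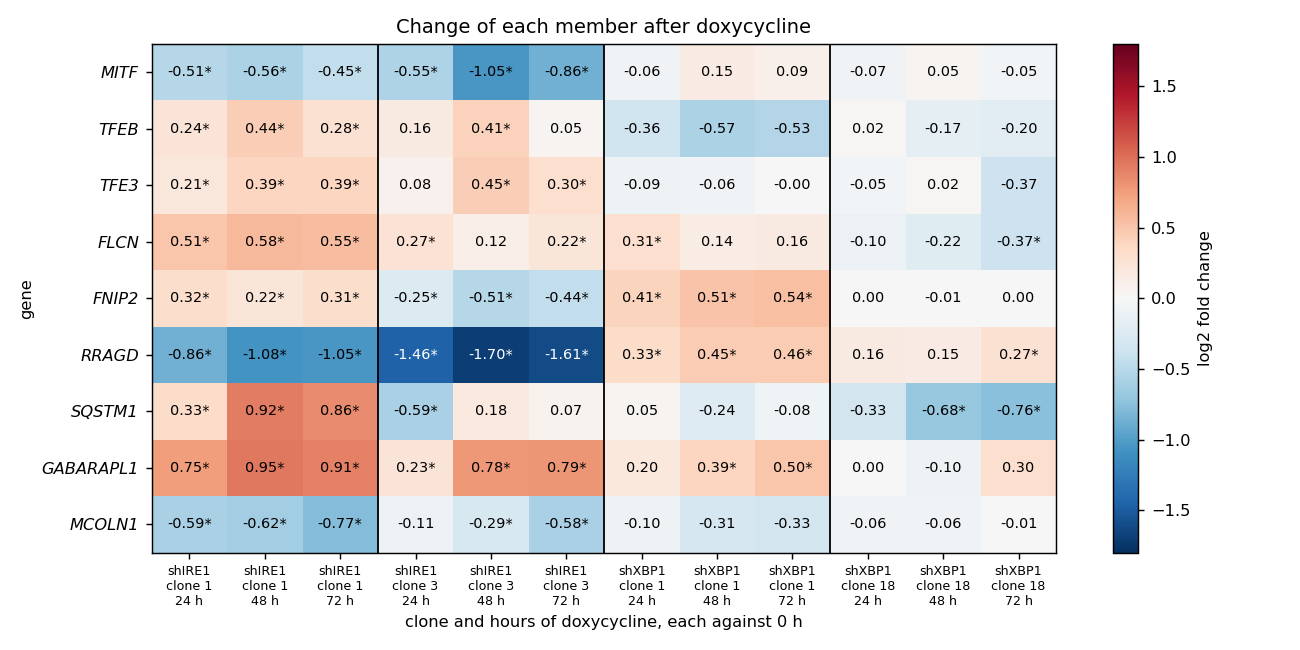
Log2 fold change of the 9 measured members (rows) at 24, 48 and 72 h against 0 h in each clone (columns); red is higher and blue is lower, and an asterisk marks an adjusted p under 0.05. RRAGD reaches -1.70 in shIRE1 clone 3, and FNIP2 and SQSTM1 carry opposite signs in the 2 shIRE1 clones at 24 h.

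GABARAPL1 rose in both shIRE1 clones and in shXBP1 clone 1. It encodes a small ubiquitin-like protein of the ATG8 family that is attached to autophagosome membranes. GABARAPL1 (ENSG00000139112, chr12:10212458-10223128, plus strand) shares 8.1% of its exon bases with the antisense gene GABARAPL1-AS1, which had 249 counts in all. In clone 1 it read 11.4, 12.2 and 12.5 CPM at 0 h, 19.2, 20.3 and 21.5 CPM at 24 h, 22.6, 24.1 and 23.4 CPM at 48 h, and 20.6, 24.4 and 23.1 CPM at 72 h. Clone 3 read 17.1, 14.7 and 15.5 CPM at 0 h, 19.4, 16.4 and 20.0 CPM at 24 h, 25.9, 28.7 and 27.3 CPM at 48 h, and 26.2, 28.9 and 27.5 CPM at 72 h. The response was fast in clone 1 and came mostly after 24 h in clone 3, where the 24 h libraries overlapped those of 0 h. GABARAPL1 rose by 0.75 ± 0.073, 0.95 ± 0.073 and 0.91 ± 0.074 in clone 1 and by 0.78 ± 0.087 and 0.79 ± 0.088 at 48 and 72 h in clone 3 (adjusted p from 1.14e-09 to 1.54e-06), which is between 1.68 and 1.94 times the level at 0 h. The clone 3 rise at 24 h, 0.23 (adjusted p = 0.0481), was lost without replicate 2 of 0 h (0.17), replicate 3 of 0 h (0.20), replicate 1 of 24 h (0.20) or replicate 3 of 24 h (0.17), and with RLE size factors, DESeq2, the fit of 6 libraries, that of 48 libraries and the replicate block (adjusted p from 0.0508 to 0.0857). It rose as well in shXBP1 clone 1, from 11.3, 11.6 and 11.03 CPM to 14.2, 15.01 and 15.6 CPM at 48 h and 17.3, 15.6 and 15.7 CPM at 72 h, by 0.39 ± 0.076 and 0.50 ± 0.076 (adjusted p = 0.00295 and 0.000531). In shXBP1 clone 18 all libraries but one lay between 7.41 and 9.29 CPM, and the 72 h change of 0.30 did not pass and was -0.01 without the library that stood apart.

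SQSTM1, the gene of the autophagy receptor p62, went different ways in different clones. SQSTM1 (ENSG00000161011, chr5:179806398-179838078, plus strand) overlaps MRNIP on the opposite strand over 21.0% of its exon bases and MGAT4B over 1.4%. Strand use in the counting is not given in the sources used here, and SQSTM1 had 701352 counts in all against 21878 for MRNIP and 136773 for MGAT4B. In shIRE1 clone 1 it read 289, 304 and 318 CPM at 0 h, 332, 386 and 431 CPM at 24 h, 586, 584 and 556 CPM at 48 h, and 571, 539.7 and 542 CPM at 72 h. Clone 3 began at 644, 614 and 682 CPM, dipped to 377, 459 and 459.6 CPM at 24 h, and read 758, 709.5 and 749 CPM at 48 h and 712, 715 and 623 CPM at 72 h. The 24 h libraries of clone 3 lay below all others of that clone, and those of clone 1 above its 0 h libraries. SQSTM1 rose by 0.33 ± 0.067, 0.92 ± 0.067 and 0.86 ± 0.067 in clone 1 (adjusted p from 5.37e-10 to 0.000293). In clone 3 it fell by 0.59 ± 0.081 at 24 h (adjusted p = 2.80e-05) and was 0.18 and 0.07 later, neither past the test. In shXBP1 clone 18 it went from 682, 614 and 692 CPM to 423, 388 and 431 CPM at 48 h and 457, 383 and 332 CPM at 72 h. It fell by 0.68 ± 0.10 and 0.76 ± 0.10 (adjusted p = 0.00172 and 0.000483), and by 0.65 at 72 h without the library that stood apart. Without that library the 24 h value of -0.33 passed as well. The shXBP1 clone 1 values of 0.05, -0.24 and -0.08 did not pass. The 48 h value was -0.33 and passed without replicate 1 of 48 h.

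MCOLN1, which encodes the calcium channel mucolipin-1 of the lysosomal membrane and has the E-boxes printed above, fell in both shIRE1 clones. MCOLN1 (ENSG00000090674, chr19:7522624-7534009, plus strand) shares 4.3% of its exon bases with a readthrough gene that had 451 counts in all and 0.2% with PNPLA6. In clone 1 it went from 26.6, 27.1 and 29.3 CPM at 0 h to 16.5, 19.8 and 18.9 CPM at 24 h, 18.4, 18.7 and 16.7 CPM at 48 h and 17.5, 16.5 and 14.6 CPM at 72 h. The fall was slower in clone 3, from 24.0, 23.1 and 24.4 CPM to 20.6, 22.4 and 23.6 CPM at 24 h, 20.5, 18.4 and 19.9 CPM at 48 h and 18.2, 17.2 and 12.6 CPM at 72 h. The 24 h libraries overlapped those of 0 h in clone 3 and not in clone 1. MCOLN1 fell by 0.59 ± 0.080, 0.62 ± 0.081 and 0.77 ± 0.083 in clone 1 (adjusted p from 1.40e-07 to 3.85e-06), and by 0.29 and 0.58 ± 0.11 at 48 and 72 h in clone 3 (adjusted p = 0.0332 and 0.000428). The 48 h call in clone 3 was lost without replicate 1 of 0 h (-0.31), replicate 3 of 0 h (-0.29), replicate 2 of 48 h (-0.25) or replicate 3 of 48 h (-0.30), and in limma, the fit of 48 libraries and with the replicate block (adjusted p from 0.0502 to 0.0557). No change passed in the shXBP1 clones. Values were -0.10, -0.31 and -0.33 in clone 1, whose first 0 h replicate was at 38.3 CPM against 29.6 and 30.3 CPM in the other two, and between -0.06 and -0.01 in clone 18. The clone 1 value at 72 h was -0.20 without that replicate. Of the 9 members, MITF, RRAGD and MCOLN1 thus fell and TFE3 and GABARAPL1 rose in both shIRE1 clones at 48 and 72 h in the fits by clone.

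Counts of members called were read against the share of all genes called. In shIRE1 clone 1 all 9 members tested were called at each time, 6 higher and 3 lower, where 32.4%, 33.9% and 32.5% of 17154 genes were higher at 24, 48 and 72 h and 29%, 31.5% and 31.1% were lower. In clone 3, 2, 3 and 3 members were higher and 4 were lower at each time, against 22.8%, 31.6% and 29.7% of 17204 genes higher and 23.3%, 31.6% and 30.5% lower. The share of members that rose in clone 3 was near that of all genes. In shXBP1 clone 1, 3 of 9 members were higher at each time and 0 lower, where 13.9%, 16.6% and 16.8% of 16603 genes were higher and 12.8%, 15.5% and 16.8% lower. At an unadjusted p under 0.05 edgeR had 0, 2 and 2 lower, DESeq2 called 0, 1 and 1 lower and limma none. In clone 18 the counts were 0 of 9 at 24 h, 1 lower at 48 h, and 1 higher and 2 lower at 72 h, where 0.291%, 2.28% and 4.41% of 16860 genes were higher and 1.3%, 3.5% and 5.55% lower. At 24 h edgeR had 1 member higher and 1 lower at an unadjusted p under 0.05, and DESeq2 and limma called 0. The median change of the 9 members ran from 0.24 to 0.39 in shIRE1 clone 1, from -0.11 to 0.12 in shIRE1 clone 3, from 0.05 to 0.14 in shXBP1 clone 1 and from -0.06 to -0.05 in shXBP1 clone 18, while the median over all genes stayed between -0.01 and 0.04. Without the library that stood apart, 1, 2 and 3 members were called in clone 18 at 24, 48 and 72 h, and the 72 h count was 1 without replicate 1 or replicate 3 of 0 h.

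The responses to shIRE1 and shXBP1, each the mean of 2 clones, were set against each other in a model of all 48 libraries. Its SEs and p-values measure the spread of replicates within a group and leave out that between clones of a target. They therefore hold for these clones and not for the targets at large. RRAGD differed most, by -1.41 ± 0.064, -1.69 ± 0.064 and -1.69 ± 0.064 on the log2 scale (SE; adjusted p from 8.30e-24 to 4.87e-21), so the shIRE1 response was lower by that amount. MITF was lower as well, with -0.48 ± 0.11, -0.91 ± 0.11 and -0.67 ± 0.11 (adjusted p = 0.000327, 1.61e-09 and 1.12e-06). FNIP2 was lower by 0.18, 0.40 and 0.33 ± 0.066, although neither target moved it one way in both clones. Its 24 h call was lost without any one of 5 libraries, namely replicates 2 and 3 of 24 h of shIRE1 clone 1, replicate 2 of 0 h of shIRE1 clone 3, and replicate 1 of 0 h and replicate 3 of 24 h of shXBP1 clone 1 (values from -0.17 to -0.16). In the other direction, SQSTM1 differed by 1.01 ± 0.097 and 0.88 ± 0.097 at 48 and 72 h and by 0.01 at 24 h, where shIRE1 clones 1 and 3 went opposite ways. GABARAPL1 differed by 0.38, 0.72 and 0.45 ± 0.11, FLCN by 0.28, 0.39 and 0.49 ± 0.078, TFEB by 0.80 and 0.53 ± 0.15 and TFE3 by 0.43 and 0.53 ± 0.15 at 48 and 72 h. TFEB at 24 h (0.36) and MCOLN1 at 24 and 48 h (-0.28 and -0.28) did not pass, nor did TFE3 at 24 h (0.21). MCOLN1 differed by -0.51 ± 0.13 at 72 h. The TFEB value at 24 h was 0.41 or 0.45 and passed without replicate 3 of 0 h of shIRE1 clone 1, or without replicate 2 of 0 h, replicate 3 of 0 h or replicate 2 of 24 h of shXBP1 clone 1. The MCOLN1 values passed at 24 h without replicate 1 of 0 h (-0.35) or of 24 h (-0.36) of shXBP1 clone 1 or replicate 1 of 24 h of shXBP1 clone 18 (-0.33). They passed at 48 h without replicate 1 of 0 h (-0.34) or replicate 2 of 48 h (-0.34) of shXBP1 clone 1 or replicate 2 of 48 h of shXBP1 clone 18 (-0.31). In all, 5, 8 and 9 of 9 members differed at 24, 48 and 72 h, where 38.7%, 56.9% and 55.3% of 18445 genes did. Leaving out the library that stood apart kept these counts, moved the TFE3 difference at 72 h from 0.53 to 0.37 and that of GABARAPL1 from 0.45 to 0.60, and ended no call.

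**Figure D3:**
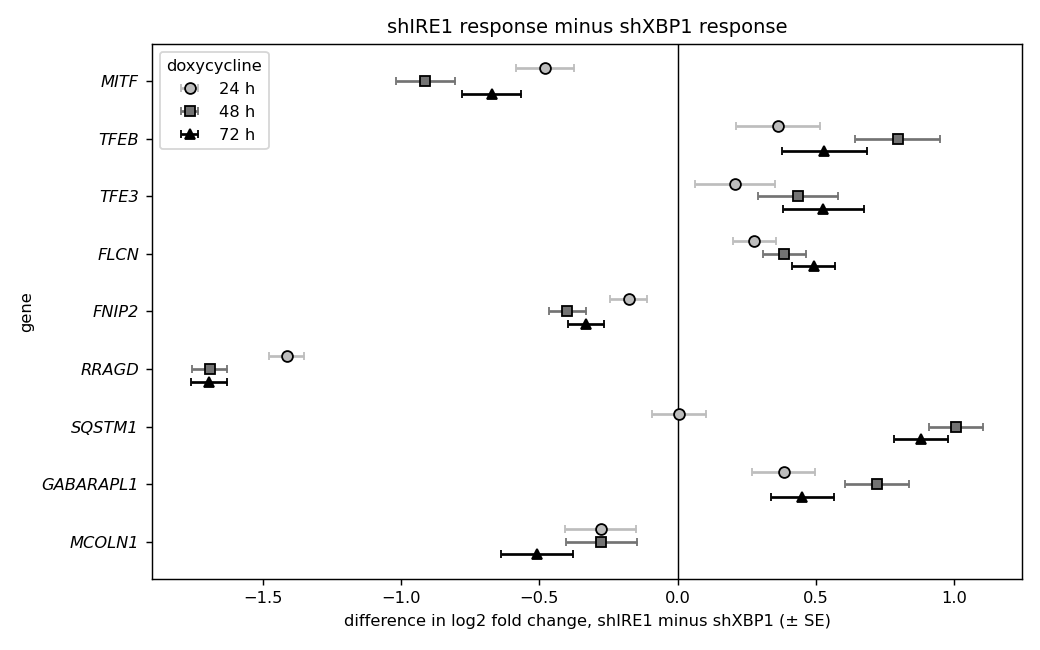
Difference between the log2 fold change after shIRE1 and that after shXBP1 (mean of 2 clones each) for the 9 measured members, with bars of ± SE, at 24 h (grey circles), 48 h (dark squares) and 72 h (black triangles). RRAGD lies at -1.41 to -1.69, away from all other members, and SQSTM1 moves from 0.01 at 24 h to 1.01 at 48 h.

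Clones that shared a target did not respond alike. Each difference is the gap between clones at that time minus their gap at 0 h. It thus uses the same 0 h libraries as the 0 h comparison below. At 72 h the means in shIRE1 clones 1 and 3 were 51.3 and 50.3 CPM for RRAGD and 60.1 and 54.7 CPM for FNIP2. They were 4.65 and 4.42 CPM for MITF, 56.2 and 59.0 CPM for FLCN, and 551 and 683 CPM for SQSTM1. Between shIRE1 clones 3 and 1 the responses differed for 5 of 9 members at each time, where 28.2%, 30.8% and 27.5% of all genes differed. RRAGD fell further in clone 3 by 0.60, 0.61 and 0.54 ± 0.091, FNIP2 differed by -0.56, -0.72 and -0.74 ± 0.093, and SQSTM1 by -0.92, -0.73 and -0.78 ± 0.14. MITF fell further in clone 3 by 0.48 at 48 h and 0.40 at 72 h (adjusted p = 0.0147 and 0.0432). Both MITF calls were weak. That at 48 h was lost without replicate 3 of 48 h of clone 1 (-0.40) or replicate 3 of 0 h (-0.39) or 48 h (-0.39) of clone 3. That at 72 h was lost in 10 of the 12 fits that left out 1 library, with values from -0.42 to -0.32. Of the others, GABARAPL1 (-0.52) and MCOLN1 (0.48) differed at 24 h and FLCN at 48 and 72 h (-0.45 and -0.33). GABARAPL1 lost its call without replicate 2 of 24 h of clone 3 (-0.42), and for MCOLN1 at 24 h and FLCN at 72 h leaving out most single libraries of either clone ended the call, with values from 0.43 to 0.52 and from -0.32 to -0.28. The count of 5 was 3 at 24 h without replicate 2 of 24 h of clone 3. At 72 h it was 3 without replicate 3 of 0 h, replicate 1 of 72 h or replicate 3 of 72 h of clone 1, or without replicate 1 of 0 h, replicate 3 of 0 h or replicate 3 of 72 h of clone 3.

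Between shXBP1 clones 18 and 1 the responses differed for 3, 5 and 3 members, where 17.1%, 24.1% and 24.6% of all genes did, and clone 18 was lower in each. Over all 18445 genes the response of clone 18 was lower for 1911, 2419 and 2513 at 24, 48 and 72 h. FNIP2 differed by -0.43, -0.54 and -0.56 ± 0.093, FLCN by -0.43, -0.38 and -0.56 ± 0.11 and SQSTM1 by -0.41, -0.46 and -0.70 ± 0.14. RRAGD (-0.33) and GABARAPL1 (-0.50) differed at 48 h. Some of these calls were lost without 1 library or another. FLCN at 48 h lost it without replicate 2 of 0 h or replicate 1 of 48 h of clone 1 or replicate 2 of 48 h of clone 18 (from -0.32 to -0.29), and SQSTM1 at 48 h without the same 3 libraries (from -0.40 to -0.34). RRAGD at 48 h lost it without replicate 1 of 0 h of clone 1 (-0.24). SQSTM1 at 24 h lost it without any one of 8 libraries (from -0.43 to -0.31). GABARAPL1 at 48 h lost it without any one of 7 (from -0.48 to -0.44). The 48 h count of 5 was 3 without replicate 1 of 0 h, replicate 2 of 0 h or replicate 1 of 48 h of clone 1, and 2 without replicate 2 of 48 h of clone 18. TFE3 differed by -0.40 at 72 h, which did not pass, by -0.62, which did, without replicate 1 of 72 h of clone 18, and by -0.07 without the library that stood apart. At 72 h GABARAPL1 differed by -0.22, which did not pass, and by -0.50, which did, without the library that stood apart.

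Before Dox, members already differed between clones of one target. At 0 h 6 of 9 members differed between the shIRE1 clones and all were higher in clone 3, where 40.6% of all genes differed. Of 18445 genes 3942 were higher in clone 3 and 3539 were lower. SQSTM1 was higher by 1.09 ± 0.098, FNIP2 by 0.60 ± 0.066, RRAGD by 0.52 ± 0.064, FLCN by 0.40 ± 0.078, GABARAPL1 by 0.39 ± 0.11 and MITF by 0.33 ± 0.10 on the log2 scale. Between shXBP1 clones 18 and 1 all 9 members differed, where 51.3% of genes did. TFE3 (1.19 ± 0.15), SQSTM1 (0.91 ± 0.098), FNIP2 (0.70 ± 0.067), FLCN (0.65 ± 0.078), MITF (0.35 ± 0.11) and RRAGD (0.19 ± 0.064) were higher in clone 18, and MCOLN1 (-0.55 ± 0.13), TFEB (-0.49 ± 0.15) and GABARAPL1 (-0.42 ± 0.12) were lower. The TFE3 libraries at 0 h show the size of this gap: 29.1, 24.2 and 25.4 CPM in clone 1 against 61.6, 57.7 and 60.3 CPM in clone 18. Without replicate 1 of 0 h of clone 1, the differences of TFEB (-0.26), MITF (0.27) and RRAGD (0.10) did not pass, nor did that of RRAGD (0.13) without replicate 2 of 0 h of clone 18. The MITF difference between shIRE1 clones did not pass without replicate 3 of 0 h of clone 1 (0.29) or of clone 3 (0.25). Each clone is 1 line, so a difference between clones cannot be told apart from chance differences that arose as they were derived.

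Other genes of the same pathways were taken from 3 lists: 73 genes of lysosomal enzymes, membrane proteins and the vacuolar proton pump, 59 genes of the autophagy machinery, and 52 genes of nutrient sensing around mTORC1, of which 70, 55 and 48 were tested in each clone. At 72 h 33 lysosomal genes rose and 19 fell in shIRE1 clone 1, and 21 rose and 27 fell in clone 3, with median changes of 0.09 and -0.07 against 0.02 and 0.02 over all genes. In both clones, 19 rose and 17 fell, and the share of all genes called the same way in both was not computed. The largest joint rises were those of IDUA (2.38 and 2.16), CTSH (0.86 and 0.86) and CTSO (1.17 and 0.54), an enzyme of glycosaminoglycan breakdown and 2 cathepsin proteases. These began low. In clones 1 and 3 the 0 h means were 0.652 and 1.22 CPM for IDUA, 5.27 and 5.54 CPM for CTSH, and 1.14 and 3.22 CPM for CTSO. In clone 3 the CTSO mean was 1.94 CPM at 24 h, below that at 0 h. GLA (-1.63 and -1.78), CD63 (-0.59 and -1.28) and GUSB (-0.65 and -1.14) fell most, a galactosidase, a membrane tetraspanin and a glucuronidase. GLA went from 41.6 ± 1.1 to 13.5 ± 0.47 CPM (SD, n = 3) in clone 1 and from 37.7 ± 2.3 to 11.1 ± 0.58 CPM in clone 3. Lysosomal genes thus moved both ways after shIRE1, where 32.5% of all genes were higher and 31.1% lower in clone 1 and 29.7% were higher and 30.5% lower in clone 3.

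After shXBP1 lysosomal genes called at 72 h were mostly lower. In shXBP1 clone 1, 8 of 70 rose and 20 fell, where 16.8% of all genes were higher and 16.8% lower, with a median of -0.08 against -0.01 over all genes. In clone 18, 1 of 70 rose and 28 fell, where 4.41% of all genes were higher and 5.55% lower, with a median of -0.25 against -0.01. Of those called the same way in both clones, again with no share of all genes computed, 1 rose, the protease LGMN (1.33 and 0.28), and 12 fell. They included CTSD (-1.31 and -0.73) and GNPTG (-0.65 and -0.86), which encode a protease and a part of the enzyme that tags hydrolases for the lysosome. CTSD read 90.5 ± 40.3 and 36.9 ± 5.6 CPM at 0 and 72 h in clone 1 and 71.0 ± 8.4 and 42.7 ± 9.4 CPM in clone 18. The 0 h libraries of clone 1 were uneven, with CTSD between 64.0 and 137 CPM and GNPTG between 8.88 and 12.9 CPM. Changes of single list genes are given from all libraries only. Without the library that stood apart 1 rose and 24 fell in clone 18, and the median of -0.25 is given only with it. The total of 29 called there was 15, 15 and 14 without replicates 1, 2 and 3 of 0 h, and the total of 28 in clone 1 was 18 without replicate 3 of 72 h.

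Of 55 autophagy genes at 72 h, 26 rose and 14 fell in shIRE1 clone 1 (median 0.12), where 32.5% of all genes were higher and 31.1% lower. In clone 3, 18 rose and 19 fell (median -0.05), where 29.7% of all genes were higher and 30.5% lower. ATG2A (1.04 and 0.94), ATG14 (0.73 and 0.94) and NBR1 (0.82 and 0.50), for lipid transfer, the initiating lipid kinase and cargo binding, rose in both. CCPG1 (-0.74 and -2.81), a receptor for autophagy of the endoplasmic reticulum, ATG3 (-0.88 and -1.31), which attaches ATG8 proteins such as GABARAPL1 to lipid, and TMEM41B (-0.73 and -1.35), a lipid scramblase, fell in both. ATG3 went from 199 ± 4.9 to 108 ± 1.5 CPM in clone 1 and from 211 ± 16 to 85.8 ± 5.5 CPM in clone 3 while GABARAPL1 rose in the same libraries. In shXBP1 clone 1, 14 rose and 3 fell (median 0.06), against 16.8% of all genes each way, and in clone 18, 1 rose and 6 fell (median -0.03), against 4.41% higher and 5.55% lower. CALCOCO2 (0.32 and 0.27) rose and TECPR1 (-0.78 and -0.75) fell in both. The total of 7 in clone 18 was 3, 3 and 2 without replicates 1, 2 and 3 of 0 h, and 6 without the library that stood apart.

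Of 48 nutrient sensing genes at 72 h, 24 rose and 7 fell in shIRE1 clone 1 (median 0.14), against 32.5% higher and 31.1% lower over all genes. In clone 3, 16 rose and 11 fell (median 0.06), against 29.7% and 30.5%. In both clones 15 rose and 3 fell, for which the share of all genes was not computed. SESN3 (1.05 and 1.70), SESN1 (1.00 and 1.26) and AKT1S1 (0.70 and 1.15), all of which restrain mTORC1, rose most. SESN3 began low, with 0 h means of 1.04 and 1.24 CPM in clones 1 and 3. SEC13 (-0.93 and -1.13), shared by a nutrient sensing complex and the coat of secretory vesicles, LAMTOR5 (-0.97 and -0.95), a part of the scaffold that holds Rag GTPases at the lysosome, and PPP3R1 (-0.67 and -0.50), the regulatory part of the phosphatase calcineurin, were those that fell in both. LAMTOR5 went from 57.6 ± 2.0 to 29.5 ± 1.2 CPM in clone 1 and from 58.1 ± 4.9 to 30.4 ± 3.1 CPM in clone 3, beside the fall of RRAGD. In shXBP1 clone 1, 10 rose and 7 fell, against 16.8% of all genes each way, and in clone 18, 1 rose and 5 fell, against 4.41% higher and 5.55% lower, with PPP3CA (0.41 and 0.39) higher and SEC13 (-0.46 and -0.51) lower in both. The total of 17 in clone 1 was 11 without replicate 2 or replicate 3 of 72 h. That of 6 in clone 18 was 3 without the library that stood apart, 2, 3 and 2 without replicates 1, 2 and 3 of 0 h, and 11 without replicate 1 of 72 h.

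**Figure D4:**
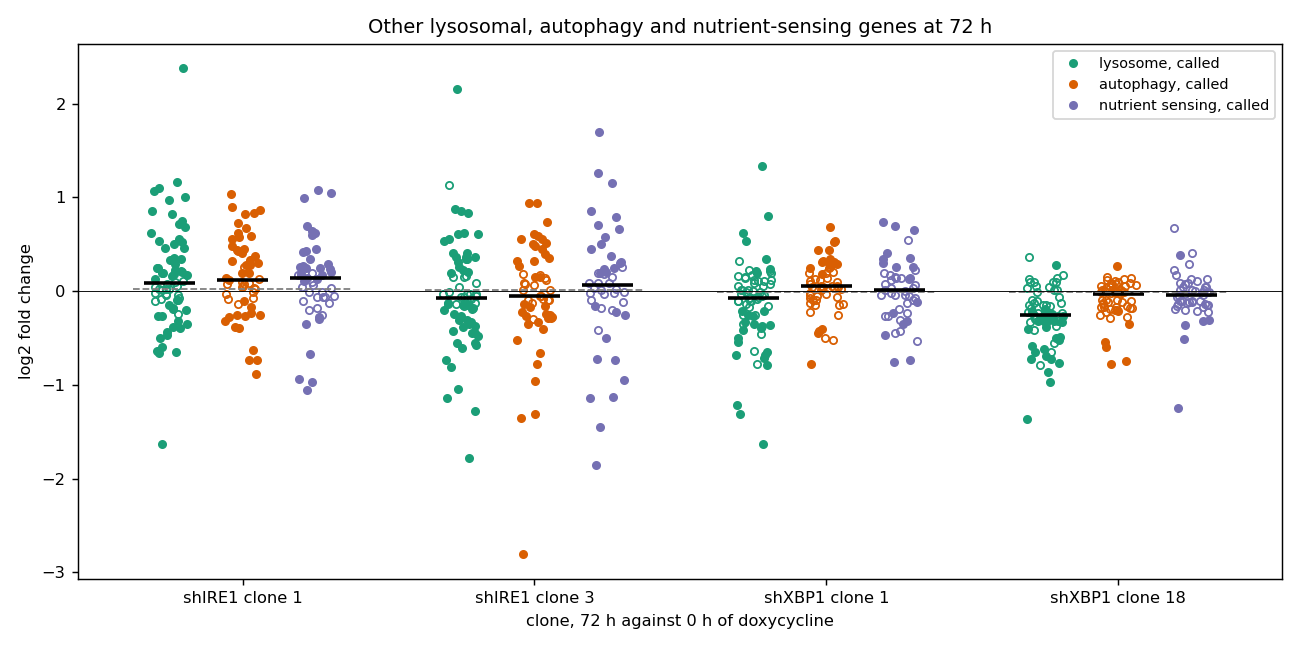
Log2 fold change at 72 h against 0 h of the other lysosomal (green), autophagy (orange) and nutrient sensing (purple) genes in each clone; filled points have an adjusted p under 0.05, open points do not, black bars are list medians and dashed lines the median of all genes. Sideways scatter within a list has no meaning, and the lysosomal genes of shXBP1 clone 18 sit lowest, with a median of -0.25.

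Over the means of the 16 groups, the members did not vary as 1 block. MITF and RRAGD had a Pearson correlation of 0.88, RRAGD and MCOLN1 of 0.70 and FLCN and SQSTM1 of 0.76, whereas MITF and GABARAPL1 stood at -0.83, RRAGD and GABARAPL1 at -0.80 and FLCN and MCOLN1 at -0.76. Among the 3 factors the values were -0.59 for MITF and TFEB, 0.22 for MITF and TFE3 and -0.15 for TFEB and TFE3. Among 12011 genes with a mean above 1 log2 CPM, those most like MITF were HSDL1 (0.96), TBC1D15, MTHFD2P7, ERGIC2 and GHITM (each 0.95). Those most like TFEB were VPS51 (0.93), RAB40C (0.92), TCIRG1 (0.92), SYNGR2 (0.91) and GAMT (0.91). Those most like TFE3 were KCNN3 (0.98), CXorf38, GRIPAP1 and TXK (each 0.97) and P2RY8 (0.96). The groups share clones and time, so these values are descriptions.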

How the data were processed

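RNA was sequenced from 48 libraries of AMO1 clones (single-end, stranded mRNA kit). The deposited table of counts, made by the authors, gave whole reads per gene with no normalisation. The deposited log2 table was the authors' log2 CPM with a prior count of 2, for 18401 genes. The submitters' processing notes name GSNAP, R 4.1.3, edgeR 3.32.1 and limma 3.46.0, and the build GRCh37/hg19, whereas the study's methods for a related experiment name GRCh38. The build of these counts is therefore not settled. Coordinates are those of GENCODE 44 on GRCh38, where 98.7% of the 58302 gene IDs matched; promoters are from RefSeq, and reads were assigned by ID alone.

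Groups came from the sample labels. CPM were scaled by TMM factors. In each clone, edgeR 4.0.16 (R 4.3.3; quasi-likelihood test, filterByExpr with a minimum count of 10 and a minimum total of 15) compared 24, 48 and 72 h with 0 h in a fit of 12 libraries. A fit of all 48 libraries compared shRNAs and clones. P-values were adjusted by Benjamini-Hochberg over all genes tested, at 0.05, and standard errors were derived from the F statistic. The fits were tested on simulated counts. Replicates were described as biological, and in all 48 pairs they differed by more than sampling noise. With 19177855 to 40767202 counts per library, precision covers these clones only.

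The members and the gene lists were chosen with earlier results of these data known. From each list the 3 largest mean rises and falls at 72 h among genes called the same way in both clones of a target were named, except for an item that is not reported here; every member was described, and the 5 genes most correlated with each factor were named among those with a mean log2 CPM above 1. Alternatives were size factors of DESeq2 (RLE), no filter, DESeq2 1.42.0, limma 3.58.1 on the log2 table, fits of 6 or 48 libraries, a replicate block, and leaving out each library.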

Additional observations from a re-analysis of the deposited data

Results flagged for a closer look

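Responses that differed between targets or between clones of a target, by a test of the difference itself in edgeR, are listed here as log2 differences, with no explanation weighed. Those between clones share the 0 h libraries with the differences between clones at 0 h. Groups had 3 replicates, too few for a test of single values, and the libraries that stood apart are described with the results.

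After shIRE1 minus after shXBP1, RRAGD differed by -1.41, -1.69 and -1.69 at 24, 48 and 72 h, MITF by -0.48, -0.91 and -0.67, and FNIP2 by -0.18, -0.40 and -0.33. FLCN differed by 0.28, 0.39 and 0.49 and GABARAPL1 by 0.38, 0.72 and 0.45 at the same times. At 48 and 72 h TFEB differed by 0.80 and 0.53, TFE3 by 0.43 and 0.53 and SQSTM1 by 1.01 and 0.88, and at 72 h MCOLN1 differed by -0.51.

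In shIRE1 clone 3 minus clone 1, FNIP2 differed by -0.56, -0.72 and -0.74 at 24, 48 and 72 h, RRAGD by -0.60, -0.61 and -0.54, and SQSTM1 by -0.92, -0.73 and -0.78. At 48 and 72 h MITF differed by -0.48 and -0.40 and FLCN by -0.45 and -0.33. At 24 h GABARAPL1 differed by -0.52 and MCOLN1 by 0.48.

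In shXBP1 clone 18 minus clone 1, FLCN differed by -0.43, -0.38 and -0.56 at 24, 48 and 72 h, FNIP2 by -0.43, -0.54 and -0.56, and SQSTM1 by -0.41, -0.46 and -0.70. At 48 h RRAGD differed by -0.33 and GABARAPL1 by -0.50.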

How the results depend on the processing

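None of the 207 member values reversed its sign as a call under any alternative run. Of 60 calls of change in a clone 49 held in all of them, of 22 calls between targets 21 did, of 26 between clones 16, and of 15 at 0 h 11; the cause of the other changes was not tested. In the fit of 6 libraries the rises of FLCN and RRAGD in shXBP1 clone 1 at 24 h and their changes in clone 18 at 72 h lost their calls (adjusted p from 0.0521 to 0.115). The MITF difference between shIRE1 clones at 72 h lost its call with RLE factors, no filter, DESeq2, limma and the block (adjusted p from 0.0594 to 0.290). With no filter, calls were also lost for MITF between these clones at 48 h (0.154), for FLCN between them at 72 h (0.0704) and for FNIP2 between targets at 24 h (0.148), given as adjusted p. Numbers of genes called in the alternatives, here and in the results, stand without the share of all genes called in the same fit. Whether they moved with that share was not tested. With only the 6 libraries compared, the members called were 1 in shXBP1 clone 1 at 24 h and 1, 2 and 1 in clone 18 at 24, 48 and 72 h, and at 72 h clone 18 had 14 lysosomal, 1 autophagy and 2 nutrient sensing genes called. With no filter, they were 5 and 5 in shXBP1 clone 1 at 48 and 72 h and 1 in clone 18 at 24 h, and 3 members differed between shIRE1 clones at 72 h. With all 48 libraries in the fit, they were 5 in clone 1 at 72 h and 1 in clone 18 at 24 h, and 12 autophagy genes were called in clone 18.

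Leaving out 1 library gave between 0 and 1, 1 and 2, and 1 and 4 members called in shXBP1 clone 18 at 24, 48 and 72 h. Between 3 and 5 members differed between shIRE1 clones at 24 h, between 3 and 5 at 72 h, and between 2 and 5 between shXBP1 clones at 48 h. At 72 h it gave between 18 and 27 lysosomal and 11 and 15 nutrient sensing genes in shXBP1 clone 1, and between 14 and 39 lysosomal, 2 and 9 autophagy and 2 and 11 nutrient sensing genes in clone 18.

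The replicate numbers did not pair the libraries: deviations of libraries with the same number had a correlation of 0.1 or less for at least 1 number in each comparison but that of shXBP1 clone 1 at 72 h, where they lay between 0.365 and 0.652. With the replicate block, members called were 7, 9 and 9 in shIRE1 clone 1, 5, 6 and 7 in clone 3, 3, 3 and 3 in shXBP1 clone 1 and 0, 1 and 3 in clone 18, and 3 nutrient sensing genes were called in clone 18 at 72 h. Of 207 values 9 lost their call with the block and 0 gained one. Depth limits MITF most, at 103 to 260 counts per library.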
